A study of Mus musculus with 6 samples.

Results

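The 9 genes described here encode transcription factors and cofactors of the mouse oocyte: the basonuclins Bnc1 and Bnc2, the basic helix-loop-helix factors Figla, Sohlh1 and Sohlh2, the homeobox factors Nobox and Lhx8, and the core promoter factors Taf4b and Tbpl2. They were taken by symbol from the deposited gene tables, which list 17577 genes, and all 9 were listed. The tables hold transcript levels of germinal vesicle oocytes, which are arrested in meiotic prophase, from 12-week-old C57BL/6 J mice after gonadotropin injection. One group of 3 libraries came from wild-type (WT) mice and the other group of 3 from Bnc1tr/tr mice, which carry on both alleles a 5-base deletion in exon 4 of Bnc1 that shifts the reading frame. The allele is present in every tissue of the animal, so an effect within the oocyte and an effect of the cells around it cannot be told apart. The methods of the study describe 1 oocyte as the input of each cDNA and comparisons between littermates. A figure legend of the study names 3 biological replicates per group, analysed in duplicate. Neither it nor the labels say whether the libraries of a group came from separate animals. The p-values therefore measure only the spread between these libraries.

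Basonuclins are zinc finger proteins of the nucleus, and basonuclin 1 is known from the germ cells and from the keratinocytes of stratified epithelia, where it acts on ribosomal RNA genes and on genes read by RNA polymerase II. Sohlh1, Sohlh2, Lhx8, Figla and Nobox act in the oocytes of young follicles, where each is needed for the formation or early growth of follicles and for the start of an oocyte-specific gene programme. Figla dimerizes with a ubiquitous helix-loop-helix partner to bind E-boxes in front of the zona pellucida genes. Nobox binds homeobox elements in front of Gdf9 and other oocyte genes. Taf4b is a germ cell form of a subunit of TFIID, the complex that marks the core promoter, and Tbpl2 is a relative of the TATA-binding protein used in growing oocytes.

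The mutated stretch of Bnc1 is shown first, because the 2 genotypes differ there by design. The gene lies on the minus strand of chromosome 7 in the mouse build GRCm38.p6, at chr7:81966657-81992299. The letters CCGGG named for the deletion occur once in exon 4, at chr7:81974418-81974422, which is coding sequence. In the line that follows, 60 bases of the WT strand at chr7:81974391-81974450 are given with the deleted letters in capitals.
Bnc1 exon 4: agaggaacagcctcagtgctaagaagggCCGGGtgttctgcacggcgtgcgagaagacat
Translation of the single annotated transcript gave 990 residues for the WT protein. Without the 5 bases, the frame kept 352 residues, added 10 and ended at a TGA codon. A search for a strict pattern of a C2H2 zinc finger found 3 matches in the full protein and 0 in the predicted 362 residues. For the human deletion the study names 3 pairs of zinc fingers and the nuclear localization signal as lost. The search pattern thus need not find every finger. Of the 4646 bases of the transcript, 77.14% lie after the deletion, and the new stop codon lies 1194 bases before the end of exon 4. The deposited values are levels per gene, so neither the missing bases nor the protein can be seen in them. The level of Bnc1 is therefore no check of the genotype labels.

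The start region of Bnc1 is shown as the promoter of the gene that carries the allele. The 250 bases before its RefSeq start, at chr7:81992300-81992549 on the minus strand, are given 5′ to 3′, and none of the motifs searched, named after it, is present.
Bnc1 promoter: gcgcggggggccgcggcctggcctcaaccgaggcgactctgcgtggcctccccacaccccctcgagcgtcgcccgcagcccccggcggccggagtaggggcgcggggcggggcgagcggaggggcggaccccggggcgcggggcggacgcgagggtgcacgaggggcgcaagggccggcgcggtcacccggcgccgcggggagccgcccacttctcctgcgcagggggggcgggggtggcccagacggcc
G and C made up 83.6% of these bases, against a median of 52% over the start regions of 27025 genes. The letters CANNTG, the E-box bound by helix-loop-helix factors, were searched on both strands, and 66% of all start regions of this length hold them. For Figla, Nobox and Bnc2 the start used lies inside the gene span given below, so these start regions are within the gene. E-box letters occurred 2 times in the start region of Figla, 2 times in that of Nobox and 1 time in that of Bnc2. They occurred 5 times in front of Sohlh1, 4 times in front of Tbpl2 and 1 time in front of Sohlh2. They occurred 0 times in front of Lhx8, as for Bnc1. The E-boxes of Figla and Nobox are shown in capitals within 30 bases each, since these are the most abundant helix-loop-helix and homeobox members in these oocytes.
Figla, chr6:86017011-86017040: tcgcactCAGGTGcgtCAAGTGtgtcacag
Nobox, chr6:43309674-43309703: cagcccccacccCAGGTGtgcggtgcctcg
Nobox, chr6:43309587-43309616: gcagactccacaCACCTGgccaccccacgg
The pair of E-boxes of Figla begins 173 and 164 bases before the start used, which lies inside the gene span. Those of Nobox begin 137 and 50 bases before a start that also lies inside its gene span. CAGCTG, 1 form of the E-box and counted within it, which 12.8% of all start regions hold, occurred 1 time in front of Tbpl2 and in none of the other 7 start regions searched. TAATTG, the Nobox element (7.34% of all start regions), and TAATTA, a homeobox core (4.9%), were found only in the start region used for Bnc2. That region lies inside the gene span of Bnc2. TATAAA (13%) was found in none of the 8 start regions. The table used for this search holds 8 of the 9 genes, and Taf4b was not analysed in it. These matches describe letters and do not show that a factor binds there.

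Levels were compared between genes in FPKM, the number of fragments per kilobase of a transcript and per M (mega) of mapped fragments, which is scaled by length. Depth was estimated from the step size of low values as 12.6 to 17.1 M fragments in the Bnc1tr/tr libraries and 14.9 to 21.6 M in WT. At this depth 3 fragments on 1 kb of transcript correspond to 0.139 to 0.238 FPKM. Pearson correlations of all genes on the log2 scale were 0.9831 to 0.9932 within groups and 0.9447 to 0.9586 between groups. At least 1 FPKM was reached by 10682 to 11035 genes in the Bnc1tr/tr libraries and by 9518 to 9748 in WT. All 8 oocyte markers examined were listed above 0 in every library, from 10.79 FPKM for Ddx4 in 1 WT library upwards. By the thresholds given below, 2 of the 8 were higher in Bnc1tr/tr (Dazl and Mos) and 0 lower. Over all tested genes 24.1% were higher and 7.68% lower. Dazl was measured at 438.5 ± 19.42 FPKM in Bnc1tr/tr and 245 ± 16.02 FPKM in WT (SD, n = 3 each; log2 fold change 0.84, adjusted p = 0.00348 by limma).

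Among WT oocytes the 9 factors ranged from barely detected to more abundant than most listed genes. Nobox was highest at 264 ± 88.43 FPKM (SD, n = 3), a level above that of 97.1% of the listed genes. Figla followed at 100.6 ± 10.73 and Lhx8 at 76.71 ± 16.87 FPKM, and the ranges of these neighbours overlapped. Tbpl2, at 14.11 ± 1.378 FPKM, and Bnc1, at 13.98 ± 1.974 FPKM, also overlapped. Bnc2 stood below both at 4.987 ± 0.2902 FPKM. Taf4b at 2.687 ± 0.342 and Sohlh2 at 2.27 ± 0.9773 FPKM overlapped, and Sohlh1 was lowest at 0.1067 ± 0.1102 FPKM. The steps from Nobox to Figla, from Lhx8 to Tbpl2, from Bnc1 to Bnc2, from Bnc2 to Taf4b and from Sohlh2 to Sohlh1 were between groups of libraries that did not overlap. In Bnc1tr/tr oocytes the order of the means was the same, and there the only neighbours whose ranges overlapped were Bnc1 and Bnc2.

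**Figure D1:**
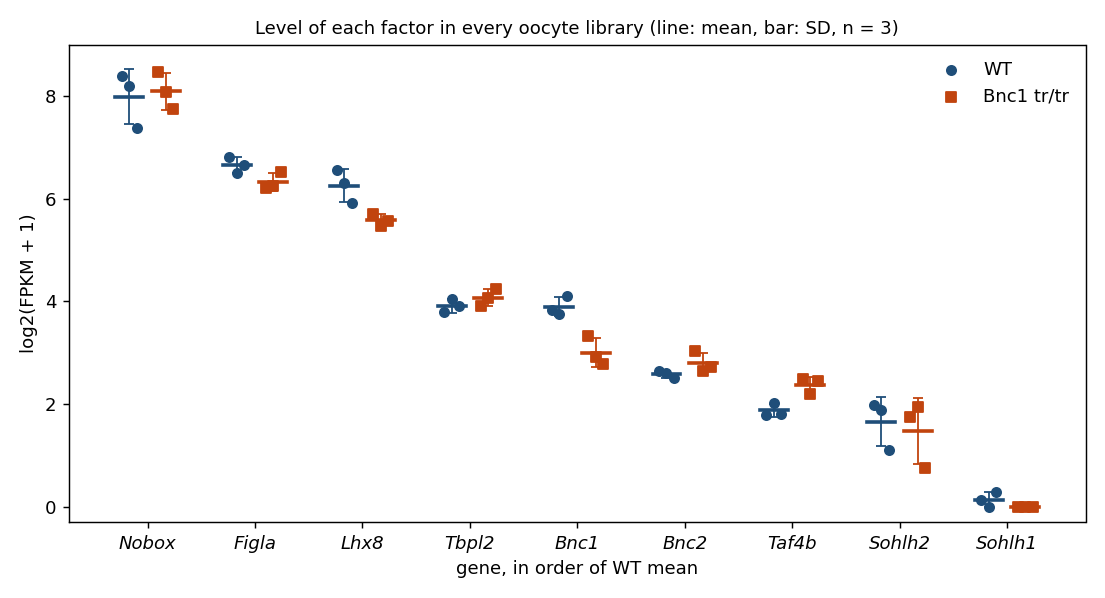
Level of each of the 9 factors in every library, as log2(FPKM + 1) on the vertical axis, with genes on the horizontal axis in order of their WT mean, circles for the 3 WT libraries, squares for the 3 Bnc1tr/tr libraries, lines for the mean and bars for the SD. The squares lie below all circles for Bnc1 and Lhx8 and above all circles for Taf4b, and Sohlh1 lies at or near 0 in every library.

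The factors also differed in how evenly they were measured within a genotype. Across the 3 WT libraries, the highest value was 1.12 times the lowest for Bnc2, 1.21 times for Tbpl2 and 1.29 times for Bnc1. It was 2.03 times the lowest for Nobox and 2.57 times for Sohlh2. In both genotypes the lowest Nobox value and the lowest Sohlh2 value came from the library numbered 3, although the numbers were not shown to pair the libraries.

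The genotypes were then compared, to ask which of these factors differed in oocytes that carry the Bnc1 frameshift. Of the 9 genes, 8 reached a mean of 1 FPKM across the 6 libraries and were tested, and Sohlh1 was below that limit. Bnc1 and Lhx8 fell and none of the 8 rose, where a call required a Benjamini-Hochberg adjusted p below 0.05 in limma and a log2 difference larger than 0.5 in size. Over all 10560 tested genes the same thresholds called 7.68% lower, 24.1% higher and 31.8% in either direction. By the adjusted p without the limit on size, the same 2 factors were lower and 0 higher, where 7.79% of all tested genes were lower, 24.3% higher and 32.1% either. The libraries of the genotypes did not overlap for 3 of the 8 factors and for 46.8% of all tested genes. The median log2 fold change of the 8 genes was -0.04, and that of all tested genes was 0.15. The median of all genes depends on the scaling: it was -0.09 once libraries were scaled to their upper quartile, -0.05 once they were scaled by median ratios and -0.09 once their quantiles were equalized. The share of higher genes among all calls was 75.8% with the values as deposited, and 50.8%, 56% and 48% under those scalings in the same order.

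Bnc1 itself was measured at 9.04, 6.51 and 5.83 FPKM in the Bnc1tr/tr libraries and at 13.17, 12.54 and 16.23 FPKM in WT. Every Bnc1tr/tr library was below every WT library, as was the case for 14.1% of all tested genes. The means were 7.127 ± 1.692 and 13.98 ± 1.974 FPKM (SD, n = 3 each), a ratio of 0.5098. By limma, Bnc1 fell by 0.89 on the log2 scale (SE 0.20, 95% interval -1.35 to -0.44, adjusted p = 0.00895), and measured from the median of all genes its difference was -1.04. It remained lower at an adjusted p between 0.0022 and 0.0369 under all 14 alternatives run, with log2 fold changes from -1.19 to -0.78. The estimated support was 441.5 to 514.4 fragments per Bnc1tr/tr library and 868.9 to 1553.3 per WT library. A pseudogene on the opposite strand, 4833418N17Rik, overlaps 98 exon bases of Bnc1, and the library kit does not mark strand, so reads from those bases cannot be told apart.

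Bnc2, the paralog of Bnc1 with the same kind of zinc fingers, lies at chr4:84266804-84676029. It was measured at 7.16, 5.23 and 5.62 FPKM in Bnc1tr/tr and at 5.24, 5.05 and 4.67 FPKM in WT, and the groups overlapped. Its means were 6.003 ± 1.021 and 4.987 ± 0.2902 FPKM (SD, n = 3 each), with a log2 fold change of 0.22 (SE 0.17, 95% interval -0.17 to 0.60, adjusted p = 0.365 by limma). The sign of this difference turned under upper-quartile scaling (-0.02) and quantile normalization (-0.14). Of the 31-base words in Bnc2 transcripts, 1.17% were also found in other genes, and the share was 0% for Bnc1.

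The balance of the basonuclins can be read within each library, where any factor that scales all genes of a library drops out. The ratio of Bnc1 to Bnc2 was 1.26, 1.24 and 1.04 in Bnc1tr/tr and 2.51, 2.48 and 3.48 in WT. The groups did not overlap, with means of 1.18 ± 0.125 and 2.82 ± 0.564 (SD, n = 3 each). In WT oocytes Bnc1 exceeded Bnc2 in each library by a wide margin, and in Bnc1tr/tr oocytes the levels were nearly equal. The log2 difference was -1.24, with p = 0.10 in an exact two-sided permutation test and 0.20 after Benjamini-Hochberg adjustment over 6 ratios. A p of 0.10 is the smallest that 3 against 3 libraries can give, and the 6 ratios were chosen after the values were seen.

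Lhx8, a LIM-homeobox factor that oocytes of primordial follicles need to survive and grow, lies at chr3:154306288-154330560. It was measured at 51.28, 43.24 and 46.22 FPKM in Bnc1tr/tr and at 92.98, 77.86 and 59.3 FPKM in WT. The Bnc1tr/tr libraries lay close together and below all WT libraries, which spread more widely. The means were 46.91 ± 4.065 and 76.71 ± 16.87 FPKM (SD, n = 3 each), a ratio of 0.6115. By limma Lhx8 fell by 0.68 on the log2 scale (SE 0.20, 95% interval -1.13 to -0.23, adjusted p = 0.0299), or -0.82 from the median of all genes. The call was lost when any 1 of 5 libraries was left out, with an adjusted p by limma of 0.0519, 0.0927 and 0.0789 without Bnc1tr/tr replicates 1, 2 and 3, and of 0.0915 and 0.0967 without WT replicates 1 and 2. It held at 0.00738 without WT replicate 3, which is the lowest of the WT values.

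Nobox, a homeobox factor of the oocyte nucleus, lies at chr6:43303674-43310072. Its level was 351.97, 267.46 and 213.56 FPKM in Bnc1tr/tr and 333.61, 293.88 and 164.5 FPKM in WT, and the groups overlapped across nearly the whole range. The means were 277.7 ± 69.77 and 264 ± 88.43 FPKM (SD, n = 3 each). The log2 fold change was 0.11 (SE 0.29, 95% interval -0.56 to 0.77, adjusted p = 0.818 by limma), and its sign turned under upper-quartile scaling (-0.17), under median-ratio scaling (-0.12), without Bnc1tr/tr replicate 1 (-0.08) and without WT replicate 3 (-0.20). The interval allows a change of the size measured for Bnc2 or Figla in either direction.

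The homeobox factors Lhx8 and Nobox were also compared as a ratio within each library. Lhx8 over Nobox was 0.146, 0.162 and 0.216 in Bnc1tr/tr and 0.279, 0.265 and 0.36 in WT, with no overlap. The means of the ratio were 0.175 ± 0.0371 and 0.301 ± 0.0517 (SD, n = 3 each). The log2 difference was -0.79 at an exact two-sided permutation p of 0.10, the smallest the design allows, and 0.20 after adjustment over the 6 ratios.

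Figla, which drives the zona pellucida genes, lies at chr6:86016494-86020996. Its level was 72.51, 74.87 and 90.49 FPKM in Bnc1tr/tr and 111.44, 89.99 and 100.46 FPKM in WT. A single Bnc1tr/tr value exceeded a single WT value, by less than 1 FPKM, and the others were ordered by genotype. The means were 79.29 ± 9.771 and 100.6 ± 10.73 FPKM (SD, n = 3 each), with a log2 fold change of -0.34 (SE 0.17, 95% interval -0.73 to 0.05, adjusted p = 0.165 by limma). The gene passed both thresholds after upper-quartile scaling, at -0.61 with adjusted p = 0.029 by limma, and after median-ratio scaling, at -0.56 with adjusted p = 0.0406. Within libraries the ratio of Lhx8 to Figla was 0.599 ± 0.0999 in Bnc1tr/tr and 0.763 ± 0.151 in WT, and the ratio of Figla to Nobox was 0.303 ± 0.111 and 0.417 ± 0.168 (SD, n = 3 each). Both ratios overlapped between genotypes, with exact two-sided permutation p of 0.20 and 0.40.

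**Figure D2:**
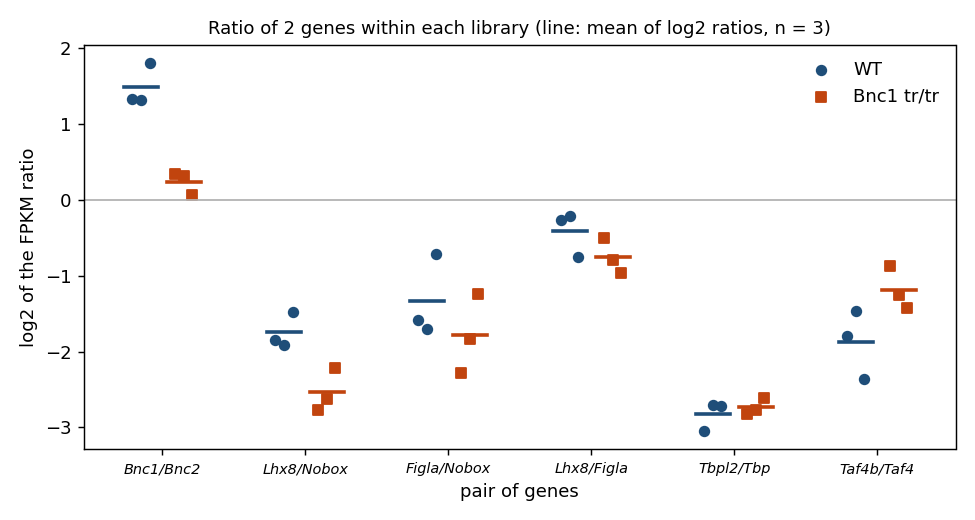
Log2 of the FPKM ratio of 6 pairs of genes within each library, with pairs on the horizontal axis, circles for the 3 WT libraries, squares for the 3 Bnc1tr/tr libraries and lines for the mean of the log2 ratios. The groups do not overlap for Bnc1/Bnc2, Lhx8/Nobox and Taf4b/Taf4 and do overlap for the other 3 pairs.

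Sohlh1 and Sohlh2 form a heterodimer in the germ cells of both sexes and act upstream of several other factors of the set in small follicles. Sohlh2, at chr3:55182044-55209957, was measured at 2.37, 2.86 and 0.68 FPKM in Bnc1tr/tr and at 2.95, 2.71 and 1.15 FPKM in WT. The values overlapped, and 1 library of each genotype lay well below the others. The log2 fold change was -0.18 (SE 0.34, 95% interval -0.96 to 0.61, adjusted p = 0.737 by limma), and its sign turned to 0.19 without Bnc1tr/tr replicate 3. Sohlh1, at chr2:25842995-25847248, was listed at 0 in all 3 Bnc1tr/tr libraries and at 0.1, 0 and 0.22 FPKM in WT. The WT values correspond to an estimated 1.6 and 5.1 fragments, and 3 fragments would give 0.13 to 0.205 FPKM for this gene. A difference in Sohlh1 was therefore not detectable at this depth, and a fit without the limit on low values gave a log2 fold change of -0.14 (adjusted p = 0.365 by limma).

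Taf4b, on chromosome 18, was measured at 4.63, 3.57 and 4.44 FPKM in Bnc1tr/tr and at 2.46, 3.08 and 2.52 FPKM in WT. Each Bnc1tr/tr library was above each WT library, as were 32.7% of all tested genes. The means were 4.213 ± 0.5652 and 2.687 ± 0.342 FPKM (SD, n = 3 each), a ratio of 1.568. With a log2 fold change of 0.498 (SE 0.17, 95% interval 0.12 to 0.88) and an adjusted p of 0.0504 by limma, the gene missed both thresholds narrowly. It passed them with a pseudocount of 0.1 FPKM, at 0.63 with adjusted p = 0.0436 by limma. The difference was smaller under each rescaling, at 0.29 (upper quartile), 0.33 (median ratio) and 0.07 (quantiles).

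Taf4, the widely expressed form that Taf4b can replace in TFIID, was measured for reference at 9.677 ± 1.969 FPKM in Bnc1tr/tr and 10.02 ± 2.535 FPKM in WT (SD, n = 3 each). The ratio of Taf4b to Taf4 was 0.544, 0.417 and 0.372 in Bnc1tr/tr and 0.287, 0.361 and 0.195 in WT, so that the ranges were separate but close. The log2 difference was 0.69 at an exact two-sided permutation p of 0.10, and 0.20 after adjustment over the 6 ratios. A test of 3 against 3 libraries cannot go below 0.10. Taf4b thus stayed below Taf4 in every library of both genotypes.

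Tbpl2, at chr2:24071366-24096595, was measured at 13.98, 15.76 and 17.84 FPKM in Bnc1tr/tr and at 12.83, 15.57 and 13.94 FPKM in WT, and the groups overlapped. Its log2 fold change was 0.16 (SE 0.17, 95% interval -0.23 to 0.54, adjusted p = 0.522 by limma), with the sign turned by all 3 rescalings (upper quartile -0.10, median ratio -0.05, quantiles -0.10). Tbp, the TATA-binding protein of most cells, was measured at 105.2 ± 5.315 and 99.53 ± 6.926 FPKM (SD, n = 3 each). The ratio of Tbpl2 to Tbp was 0.151 ± 0.0117 in Bnc1tr/tr and 0.142 ± 0.0182 in WT, at an exact two-sided permutation p of 0.70. At the transcript level Tbp exceeded Tbpl2 in each library of both genotypes.

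**Figure D3:**
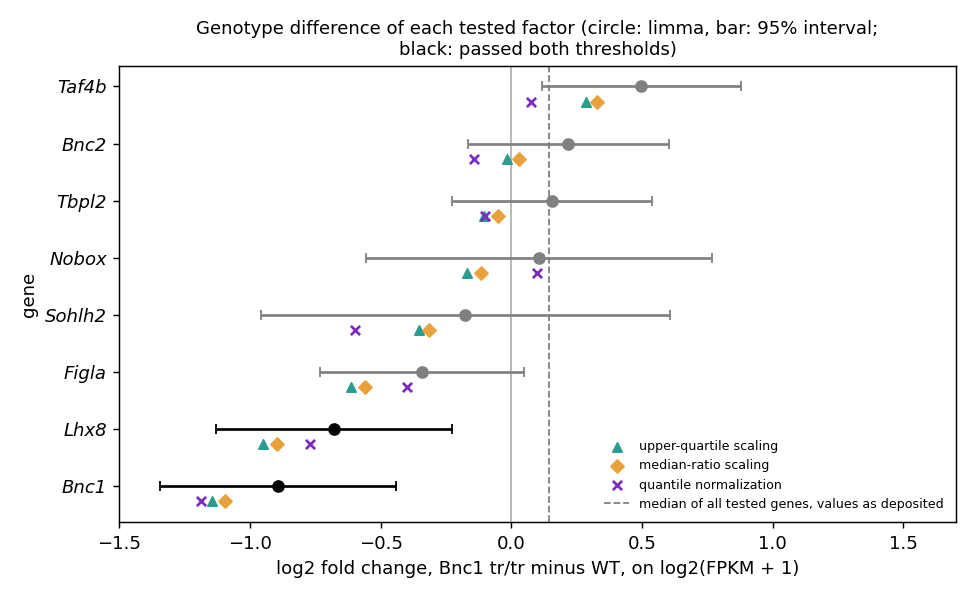
Log2 fold change of the 8 tested factors on the horizontal axis, Bnc1tr/tr minus WT, with the gene on the vertical axis, circles for limma on the values as deposited, bars for the 95% interval and smaller symbols for 3 rescalings. Bnc1 and Lhx8, in black, passed both thresholds and lie left of 0 under all scalings shown, whereas Bnc2, Tbpl2 and Nobox change sign with the scaling; the dashed line is the median of all tested genes.

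The genes whose pattern over the 6 libraries was most like that of Bnc1 were sought by the root-mean-square difference of log2(FPKM + 1), each gene centred on its own mean. The 5 nearest were Prkd1 (0.0852), Zfp433 (0.1017), Pik3c2b (0.1134), Zfp950 (0.1168) and Dgkd (0.1199). Prkd1, a protein kinase D, was measured at 6.43, 4.36 and 4.84 FPKM in Bnc1tr/tr and 9.82, 8.9 and 12.51 FPKM in WT, highest like Bnc1 in WT replicate 3. Zfp433 and Zfp950 are zinc finger genes, Pik3c2b encodes a phosphoinositide kinase and Dgkd a diacylglycerol kinase. The likeness is a description over 6 libraries of 2 genotypes, in which any gene lower in Bnc1tr/tr resembles Bnc1 in part.

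Genes that need the factors for their expression in oocytes were examined as a list of 16, all of them tested. At the thresholds given above 1 rose and 4 fell, where 24.1% of all tested genes rose, 7.68% fell and 31.8% did either, with a median log2 fold change of -0.04 beside 0.15 for all tested genes. The 4 lower genes were Zp2, a zona pellucida glycoprotein (386.8 ± 63.55 against 654.7 ± 149.7 FPKM, log2 fold change -0.74, adjusted p = 0.0319 by limma), Oog1, an oocyte-specific gene (-0.71), and the maternal-effect genes Nlrp14 (-0.65) and Nlrp5 (-0.62). Zp2, Nlrp14 and Nlrp5 each lost the call when any 1 library other than WT replicate 3 was left out, with adjusted p by limma of 0.0549 to 0.109, 0.0916 to 0.132 and 0.0644 to 0.114. Zp2 and Nlrp14 also lost it with a pseudocount of 0.1 FPKM (adjusted p by limma of 0.0551 and 0.0669). Without a limit on low values these 2 genes lost it too (0.0621 and 0.0664 by limma). Nlrp14 lost it after quantile normalization as well (0.0868 by limma). Oog1 kept its call under every alternative run, with adjusted p by limma of 0.00154 to 0.0383. Of the 31-base words in Oog1 transcripts, however, 93.4% also occur in transcripts of other genes, so its value is uncertain, and for Nlrp5 the share was 12.4%. Mos, the kinase that holds the egg in meiotic metaphase, rose from 394.6 ± 97.63 to 736.6 ± 170.3 FPKM (SD, n = 3 each; log2 fold change 0.90, adjusted p = 0.0188 by limma). The call for Mos was lost without Bnc1tr/tr replicate 1 (adjusted p = 0.0669 by limma) and without WT replicate 2 (0.0572).

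The most abundant genes of this list in WT were the linker histone H1foo and the zona glycoprotein Zp3. H1foo was measured at 7399 ± 576.4 FPKM in Bnc1tr/tr and 7401 ± 666.5 FPKM in WT (SD, n = 3 each), with a log2 fold change of 0.00 and an interval from -0.37 to 0.37. Zp3 was measured at 1932 ± 153 and 3048 ± 814.2 FPKM, with no overlap between groups, a log2 fold change of -0.62 and an adjusted p of 0.0628 by limma. Zp3 was called lower in 4 alternatives: after upper-quartile scaling (log2 fold change -0.90, adjusted p = 0.00909 by limma), after median-ratio scaling (-0.84, 0.0128), with trend and robust variances (-0.62, 0.0415) and without WT replicate 3 (-0.86, 0.00618).

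The general factors with which Taf4b and Tbpl2 work were listed as 21 genes of TFIID, TFIIA and TFIIB, of which 20 were tested. Of these, 3 rose and 0 fell, beside 24.1% and 7.68% of all tested genes, with a median log2 fold change of 0.18 beside 0.15 for all tested genes. Gtf2b, which encodes TFIIB, was measured at 853.6 ± 25.64 FPKM in Bnc1tr/tr and 475 ± 57.73 FPKM in WT (SD, n = 3 each; log2 fold change 0.85, adjusted p = 0.00448 by limma). Taf10, a subunit of TFIID and SAGA, differed by 0.84 and Gtf2a2, the small subunit of TFIIA, by 0.56 on the log2 scale. Under upper-quartile and median-ratio scaling only 1 of the 20, Gtf2b, was called higher. Taf10 also lost its call without WT replicate 2 (adjusted p = 0.0502 by limma), and Gtf2a2 lost it without any 1 library other than WT replicate 3 (0.0516 to 0.107). Taf9, the most abundant of the list in WT, was measured at 717.7 ± 41.27 and 727.6 ± 77.77 FPKM (SD, n = 3 each).

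Partner factors of the helix-loop-helix, LIM-homeobox and other oocyte regulators formed a list of 12, of which 11 were found in the tables and 9 were tested. Of the 9, 0 rose and 1 fell, with a median log2 fold change of 0.13, read against the same shares and median of all tested genes. The lower gene was Dynll1, a dynein light chain that also binds many other proteins, at 95.94 ± 3.09 FPKM in Bnc1tr/tr and 176.9 ± 17.1 FPKM in WT (SD, n = 3 each; log2 fold change -0.87, adjusted p = 0.00318 by limma). Sub1, a transcriptional coactivator and the most abundant of the list in WT, was measured at 492.9 ± 116.4 and 676.1 ± 268.4 FPKM and was not called (log2 fold change -0.41).

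**Figure D4:**
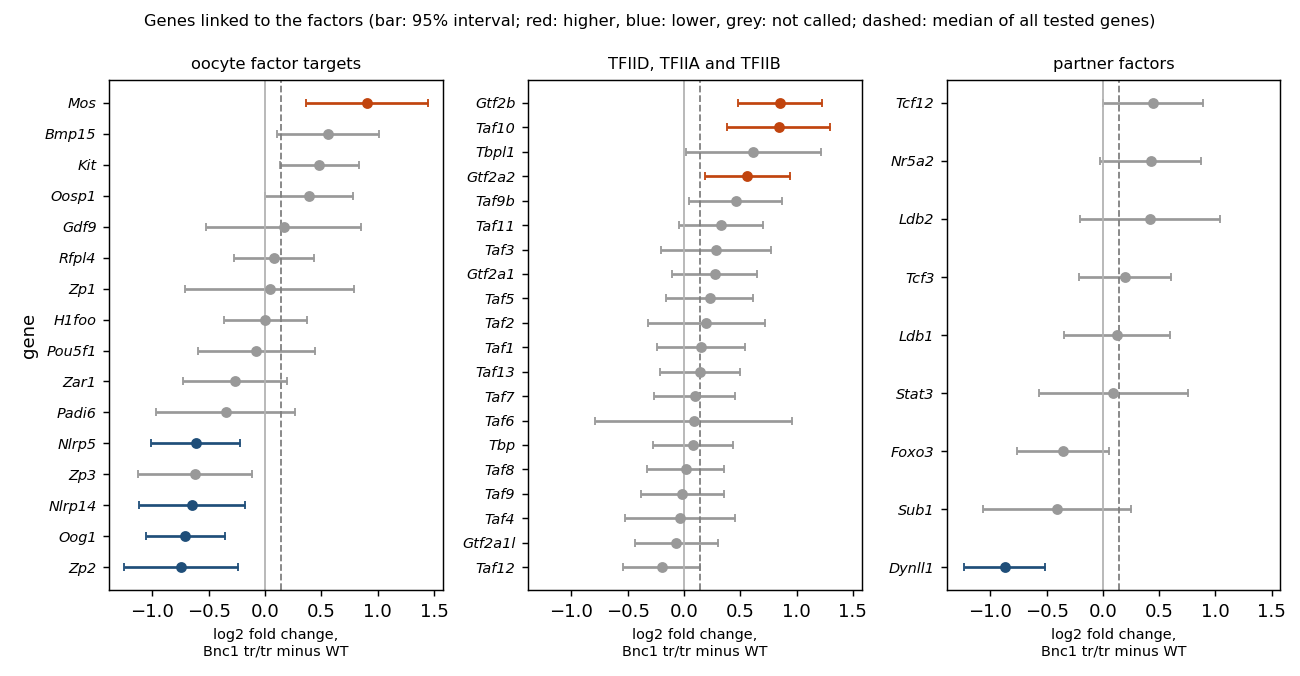
Log2 fold change, Bnc1tr/tr minus WT, with its 95% interval, of the tested genes of the 3 lists, where each row is a gene, red marks genes called higher, blue genes called lower and grey genes not called, and the dashed line is the median of all tested genes. Called genes lie on both sides among the 16 targets, only to the right among the 20 general factors and only to the left among the 9 partner factors, with values as deposited.

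Some genes listed as markers of other cell types also differed between the groups of libraries. Their part in the differences above was not tested. The counts of calls cover few genes and are read beside the shares of all tested genes, 24.1% higher and 7.68% lower. The summed level of the 8 listed granulosa markers was 36.21 to 55.21 FPKM in Bnc1tr/tr and 18.88 to 36.11 in WT, with 2 of 4 tested genes higher (Fshr and Kitl). Most of this sum was Cyp19a1, the aromatase of granulosa cells, at 27.49, 44.41 and 33.46 FPKM in Bnc1tr/tr and 23.45, 28.98 and 17.41 FPKM in WT. Its groups overlapped and it was not called (adjusted p = 0.101 by limma). Fshr was measured at 5.247 ± 0.6538 FPKM in Bnc1tr/tr and 0.35 ± 0.3716 FPKM in WT (SD, n = 3 each; log2 fold change 2.24, adjusted p = 0.000111 by limma). Kitl was at 2.457 against 1.143 FPKM in WT (log2 fold change 0.68, adjusted p = 0.0178 by limma). Inha went the other way, at 0.6933 ± 0.9681 against 3.423 ± 3.37 FPKM in WT, and was not called (log2 fold change -1.11, adjusted p = 0.239 by limma). Hsd17b1, below the limit for testing, also had a lower mean, at 0.1967 against 0.7867 FPKM in WT. Foxl2 and Amhr2 were at 0 in 5 of 6 libraries. The 8 listed theca, stroma and surface epithelium markers summed to 8.29 to 12.33 FPKM in Bnc1tr/tr and 2.87 to 4.46 FPKM in WT. Of 3 tested genes 2 were higher, and Col1a1, Lhcgr and Wt1 were at 0 in most libraries. The higher genes were Dcn (6.113 against 1.62 FPKM in WT, log2 fold change 1.44, adjusted p = 0.000506 by limma) and Upk3b (2.26 against 0.5533 FPKM in WT, log2 fold change 1.03, adjusted p = 0.00939 by limma). Of the immune markers, Ptprc, Cd68, Adgre1, Csf1r, Cd3e, Lyz2 and Tyrobp summed to 27.33, 61.83 and 1.89 FPKM in Bnc1tr/tr and to 3, 2.01 and 1.39 FPKM in WT, with 0 of 3 tested genes called. Lyz2 (5.81 and 47.97 FPKM) and Tyrobp (8.42 and 9.8 FPKM) were above 0 only in Bnc1tr/tr replicates 1 and 2. Adgre1 and Cd3e were at 0 in each WT library and above 0 in each Bnc1tr/tr library, at no more than 0.67 FPKM. Of the keratinocyte markers, of interest because basonuclin 1 is known from those cells, Krt5, Krt14, Ivl and Lor were not listed. The 4 listed genes summed to 38.37 to 40.72 FPKM in Bnc1tr/tr and 22.64 to 24.39 FPKM in WT. Of 3 tested genes 1 was higher, and Krt1 was at 0 in 5 of 6 libraries. The higher gene was Sfn, at 13.26 ± 4.659 FPKM in Bnc1tr/tr and 2.86 ± 1.003 FPKM in WT (SD, n = 3 each; log2 fold change 1.87, adjusted p = 0.00104 by limma). Most of the sum was Krt10 (15.68 against 12.87 FPKM in WT) and Trp63 (10.85 against 7.687 FPKM), neither of them called. The study cites TAp63α, a product of Trp63, in oocyte death, so the sum is no measure of keratinocyte transcripts alone. Lyz2 and Tyrobp were at 0 in Bnc1tr/tr replicate 3. The granulosa sum there was 41.75 FPKM, and that of theca, stroma and surface epithelium 8.29 FPKM. Bnc1 and Lhx8 were below every WT value in each Bnc1tr/tr library, and a link to these markers was not tested. A different number of cells of a type and a different amount of RNA per cell cannot be told apart in such values.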

How the data were processed

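Libraries of mouse germinal vesicle oocytes were made with oligo-dT priming, template switching, cDNA amplification and a transposase kit that does not mark strand. The authors deposited 1 table per library, in FPKM rounded to 2 decimals. The submitters' processing notes name HISAT2 2.0.4, Bowtie2 2.2.5, RSEM 1.2.12 and the build GRCm38.p6 without their roles, and which annotation or gene filter was applied is not given in the sources used here. Since FPKM divides by the total of each library, a shift in abundant transcripts moves the values of the rest. The cDNA was amplified with no molecular identifiers, so reads are not independent molecules and fragment numbers cover counting error only.

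Genotypes came from the labels. Values were analysed as log2(FPKM + 1), a scale that shrinks the differences of low genes, with limma 3.58.1 (R 4.3.3), for genes whose mean across the 6 libraries reached 1 FPKM. A gene was called when its p, adjusted over all tested genes by the Benjamini-Hochberg procedure, was below 0.05 and its log2 difference exceeded 0.5 in size, which are the limits the study gave for its oocyte sequencing. The script was tested on simulated data. Ratios within libraries were compared by exact two-sided permutation tests (scipy 1.17.1). Depth, read from the spacing of low values, entered no test. Positions and promoter sequences came from RefSeq (GRCm38.p6), matched by gene ID, and transcripts from GENCODE M21.

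The 9 genes, the lists and the tests were chosen with earlier results of these data known. All 9 genes are named, with the called genes and the 2 highest in WT of each list, and the 5 genes nearest to Bnc1. Taf4 and Tbp were added as denominators of ratios after their values were seen, and the single marker genes were named likewise. Alternatives were another pseudocount, other limits on low values, 3 rescalings, limma with trend and robust variances, a replicate block, each library left out, and adjusted p alone. One immune marker of the 8 listed is not reported here.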

Additional observations from a re-analysis of the deposited data

How the results depend on the processing

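Bnc1 kept its call under all 14 alternatives, and of the WT levels only that of Bnc2 moved by more than its SD, to 5.379 FPKM after median-ratio scaling. The direction turned for Bnc2 at -0.016 after upper-quartile scaling and -0.14 after quantile normalization. It turned for Nobox at -0.17 after upper-quartile and -0.12 after median-ratio scaling, and for Tbpl2 at -0.10, -0.052 and -0.10 after upper-quartile, median-ratio and quantile scaling. H1foo turned at -0.28 and -0.22 under the first 2 of these, and Taf9 at 0.065 after quantile normalization. Leaving out 1 library gave log2 fold changes of -0.20 to 0.31 for Nobox, -0.45 to 0.19 for Sohlh2, -0.072 to 0.057 for H1foo, -0.077 to 0.068 for Taf9 and -0.85 to -0.53 for Lhx8. Figla became called at -0.61 and -0.56 after upper-quartile and median-ratio scaling, and Taf4b at 0.63 with a pseudocount of 0.1 FPKM, which makes 1 factor higher. The cause of these changes was not tested.

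Over all genes, calls in total fell to 2046 and higher calls to 1413 with a minimum mean of 5 FPKM, where fewer genes are tested, and higher calls were 1666 after quantile normalization. Lower calls were 1794, 1535 and 1804 after upper-quartile, median-ratio and quantile scaling, and 418 to 1041 with 1 library left out. Among the 16 targets, 2 were higher after quantile normalization, 2 with trend and robust variances and 2 by adjusted p alone, and 2 were lower with a pseudocount of 0.1 FPKM and 2 without a limit on low values. Without 1 library the targets gave 0 to 2 higher and 1 to 6 lower genes, the factors 1 to 2 lower genes and the general factors 1 to 4 higher genes. Of the general factors 1 was higher after upper-quartile and 1 after median-ratio scaling. Of the partner factors 1 was higher without a limit on low values, and 2 were lower after each of the 3 rescalings.

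The replicate numbers of the titles were not shown to pair the libraries: libraries numbered 1, 2 and 3 deviated from their group means with correlations of 0.28, -0.03 and 0.12 between genotypes, and 3 of 6 libraries correlated best with their own number. With the replicate block, 3733 genes were called (3358 without it), Bnc1 had an adjusted p of 0.011 by limma, Lhx8 of 0.0217 and Taf4b of 0.0662, and no call among the factors changed. Depth limits what can be said of Sohlh1, whose values lie near those of 3 fragments.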
